A study of Mus musculus with 11 samples.

Results

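The genes described here are the 9 core genes of MHC class II presentation in the mouse: the invariant chain Cd74, the classical chains H2-Aa, H2-Ab1 and H2-Eb1, the H2-DM chains H2-DMa and H2-DMb1, the H2-O chains H2-Oa and H2-Ob, and the transactivator Ciita. They were chosen by name, and each was found by the Ensembl ID that carries its symbol, so all 9 were present among the 23255 genes of the table. All 9 also passed the filter for testing, a mean of at least 1 in the deposited unit over all libraries, as did 16225 genes in all. Bulk lung RNA of C57BL/6 mice was depleted of ribosomal RNA and sequenced in 11 libraries: 5 of the osimertinib group, 3 of the naphthalene group and 3 of the untreated control group. Naphthalene is toxic to airway club cells, and osimertinib, a drug against lung cancer that blocks the EGF receptor, followed it in the first group. The osimertinib mice had thus received naphthalene too, and no group received osimertinib alone. Doses, times, ages and sexes are not in the labels used here, nor whether a library is 1 animal, and the spread that p-values rest on may therefore be technical. The series asks how naive CD4+ T cells take part in the pneumonitis that osimertinib can cause, and CD4+ T cells are the cells that read peptides on MHC class II.

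Class II molecules are pairs of an alpha and a beta chain that carry peptides from endosomes to the surface of antigen-presenting cells. The invariant chain guides new pairs to the endosome and fills their groove with a placeholder peptide, which H2-DM exchanges for antigen-derived ones, while H2-O binds H2-DM and restrains it. In mice, B cells, dendritic cells and many macrophages carry class II, alveolar type 2 cells carry it too, and H2-O is found mainly in B cells and some dendritic cells. Ciita, recruited to DNA by the RFX and NF-Y factors, switches the set on. C57BL/6 mice make the I-A pair (H2-Aa with H2-Ab1) but no I-E surface pair, since their H2-Ea gene is defective, so H2-Eb1 is transcribed without its partner.

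The class II genes are known for a shared promoter module in which RFX binds the X box and NF-Y binds the Y box, an inverted CCAAT, a short distance downstream. RefSeq promoter windows (GRCm38.p6, 250 bases before to 50 after the start site) were available for 6 of the 9 members, in 7 windows; Cd74, H2-Ab1 and Ciita were not matched. The windows were searched on both strands for GNAAC followed, after 20 to 40 bases, by ATTGG, letters and spacing chosen after the windows had been read. The pair of motifs was present in 5 of the 6 members and in 3.41% of all 32851 windows. With GCAAC in place of GNAAC it was present in 4 members and in 1.01% of all windows. Alone, GNAAC was present in 84.85% and ATTGG in 37.41% of all windows. Since the pattern was chosen after reading the member windows, these member counts are no test. The stretches are printed because members that lay apart in their values below hold the same pair of letters. Capitals mark GNAAC and ATTGG, and each stretch runs 5′ to 3′ on the strand of its gene.
H2-Aa, chr17:34287842-34287929, minus strand: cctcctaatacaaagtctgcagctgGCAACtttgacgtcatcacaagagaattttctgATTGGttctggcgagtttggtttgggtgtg
H2-Eb1, chr17:34305751-34305837, plus strand: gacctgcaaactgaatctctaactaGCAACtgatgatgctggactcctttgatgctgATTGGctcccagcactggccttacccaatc
H2-DMb1, chr17:34153072-34153159, plus strand: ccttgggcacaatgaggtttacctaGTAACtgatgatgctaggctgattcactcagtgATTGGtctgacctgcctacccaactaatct
H2-Oa, chr17:34092278-34092365, plus strand: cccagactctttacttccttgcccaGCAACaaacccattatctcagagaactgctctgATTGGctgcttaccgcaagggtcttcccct
H2-Ob, chr17:34238793-34238877, plus strand: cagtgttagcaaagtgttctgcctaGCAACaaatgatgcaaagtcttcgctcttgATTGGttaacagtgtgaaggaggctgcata
In these 5 windows the motifs lay 25 to 28 bases apart, and ATTGG ended 38 to 56 bases before the start site. Neither H2-DMa window held the pair. A match is a description of letters, not evidence that a factor binds there.

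Several libraries stood apart. An unnamed gene (ENSMUSG00000119584) took 43.9 to 60.3% of the reads in all 3 naphthalene libraries and in osimertinib 2, and at most 0.0337% in the others, so that 2018541 to 2965328 reads were left for other genes there, against 8418669 to 13006929 elsewhere. Osimertinib 3 had the highest score on the first principal component (72.7, against −29.2 to 26.2 in the others), and naphthalene 3 the next highest. A further gene (ENSMUSG00000118841) took 16.7% of the reads in osimertinib 3 and 4.55% in naphthalene 3, against 0.836 to 4.38% in the other libraries. In osimertinib 3 genes with under 2000 bases of exon lay at a median log2 of 0.56 above the mean of the other osimertinib libraries, against −0.09 for genes with over 5000 bases. The lung label was checked with Sftpc, the surfactant gene of alveolar type 2 cells, which stood at 5940 to 17256 CPM in the 11 libraries. Values below are the deposited values (CPM, reads scaled to an effective library size, which is not the plain total of reads). Log2 differences are differences of mean log2(CPM + 1), which understates the change of low genes.

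Per kilobase of exon, the invariant chain was the most abundant member in every group. Cd74 averaged 310 CPM per kilobase with osimertinib, 289 with naphthalene and 287 in control, against 69.7, 54.5 and 53.3 for H2-Aa. The other classical chains followed, with H2-Ab1 at 56.9, 48.5 and 53.2 and H2-Eb1 at 53.7, 44.6 and 44.6 CPM per kilobase in the same groups. The H2-DM chains were lower, at 15.3, 11.1 and 11.4 for H2-DMb1 and 6.88, 6.15 and 5.85 for H2-DMa. At the low end were Ciita (3.34, 2.92 and 3.57), H2-Ob (2.37, 4.66 and 4.74) and H2-Oa (2.50, 3.35 and 3.32). These lengths are unions of annotated exons, which overstate the length of genes with long rare isoforms. The order H2-Aa, H2-Ab1, H2-Eb1 was the same in each group, though H2-Aa and H2-Ab1 were nearly level in control, and the order among Ciita, H2-Ob and H2-Oa changed between groups.

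The comparison of osimertinib with naphthalene addresses the drug on a background of injury. The unnamed gene took 46.8 to 60.3% of reads in naphthalene 1 to 3 and 43.9% in osimertinib 2. In osimertinib 1, 3, 4 and 5 it took at most 0.0337%. Outside osimertinib 2 the drug and this share therefore cannot be told apart, and the part of the share was not tested. The chains of H2-O lay below naphthalene (H2-Ob at 0.509 of its naphthalene mean, H2-Oa at 0.748), while the other 7 members had means of 1.07 to 1.37 times theirs; with all libraries brought to equal totals H2-Ob and H2-Oa turned positive. No member passed the test. H2-Ob, the beta chain of H2-O, was at 17.3, 11.4, 12.5, 16.6 and 6.06 CPM in osimertinib 1 to 5, against 23.0, 29.3 and 22.9 CPM in naphthalene 1 to 3. No osimertinib library reached the lowest naphthalene library, and osimertinib 5 was the lowest of all. The means were 12.8 ± 4.55 (SD, n = 5) and 25.1 ± 3.62 (SD, n = 3), a log2 difference of −0.99 (SE 0.27). Over all 16225 genes H2-Ob ranked 223 by limma p and did not pass (adjusted p = 0.253, and 0.152 to 0.721 over the alternatives tried). In osimertinib 2 alone, where the unnamed gene took a share like that in naphthalene, the difference was −1.07. Among the alternatives the log2 difference turned positive (0.13) with equal totals only, where the unnamed gene is counted in the total and the median gene lay at 1.12.

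H2-Oa, the alpha chain of H2-O, was at 3.13, 2.12, 8.11, 2.93 and 1.33 CPM in osimertinib 1 to 5, against 4.74, 4.35 and 5.05 CPM in naphthalene 1 to 3. Osimertinib 3 exceeded every other library and the other 4 lay below all naphthalene libraries. The log2 difference was −0.50 (SE 0.35, limma adjusted p = 0.662), and −0.79 without osimertinib 3 (adjusted p = 0.188, and 0.188 to 0.949 over the alternatives tried); with equal totals it was 0.42, below the median gene. Counts were low for this gene, with 8 to 91 reads per osimertinib library and 11 to 15 per naphthalene library. In the annotation H2-Oa overlaps a gene on the opposite strand (BC051537), as do H2-DMa (Brd2) and Ciita (Dexi), and Cd74 overlaps the microRNA gene Mir5107 on its own strand. No source used here says whether counting used the strand.

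Ratios within a library do not depend on how libraries were scaled to each other. The ratio of H2-Ob to H2-DMa, the restraining chain to a chain of the editor it binds, was 0.777, 0.50, 0.379, 0.899 and 0.274 in osimertinib 1 to 5, against 1.43, 1.57 and 0.794 in naphthalene 1 to 3 and 1.56, 1.33 and 0.926 in control 1 to 3. All 5 osimertinib libraries lay below all control libraries, and osimertinib 4 overlapped naphthalene 3. The ratio of H2-Oa to H2-DMa was 0.140 ± 0.0712 (SD, n = 5) with osimertinib, against 0.234 ± 0.0598 (SD, n = 3) with naphthalene and 0.233 ± 0.0565 (SD, n = 3) in control, and the groups overlapped through osimertinib 3 at 0.247. These ratios were given no test.

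**Figure D1:**
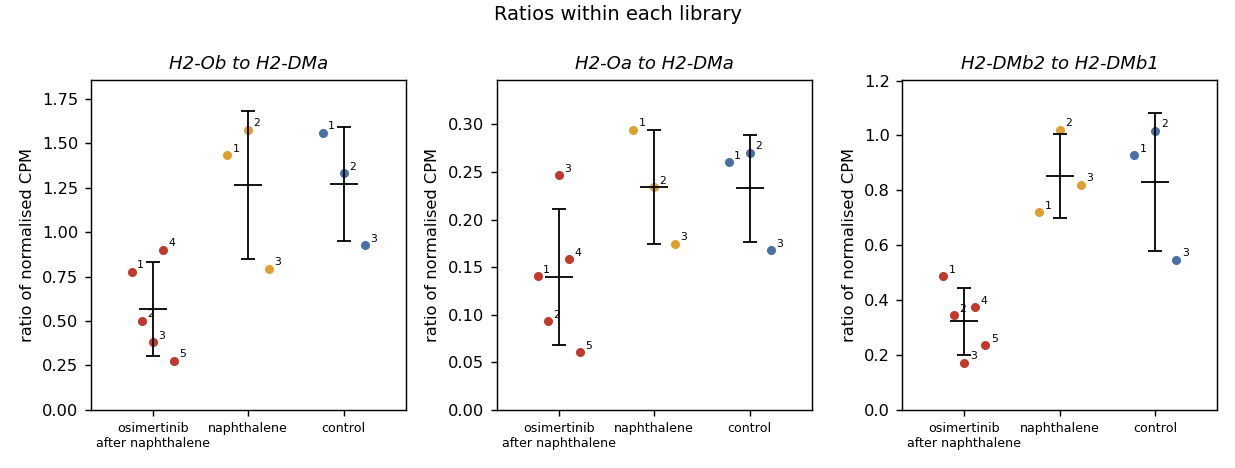
Ratios of deposited values (CPM) within each library, by group, for H2-Ob to H2-DMa, H2-Oa to H2-DMa and H2-DMb2 to H2-DMb1; points are libraries with their replicate number, and bars show mean and SD. Osimertinib libraries lie at 0.274 to 0.899 in the first panel, against 0.794 to 1.57 for naphthalene and 0.926 to 1.56 for control.

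Among the classical chains no member separated osimertinib from naphthalene. H2-Ab1, the beta chain of I-A, was at 146 ± 21.4 CPM (SD, n = 5), against 125 ± 6.16 CPM (SD, n = 3), with osimertinib 2 highest at 180 and osimertinib 4 within the naphthalene range at 121. Its log2 difference was 0.22 (SE 0.11, limma adjusted p = 0.554). H2-Aa, the alpha chain of I-A, was at 231, 236, 433, 207 and 216 CPM in osimertinib 1 to 5, against 173, 181 and 266 CPM in naphthalene 1 to 3. Its highest osimertinib and highest naphthalene values were in the libraries numbered 3, and the log2 difference of 0.32 (SE 0.22, adjusted p = 0.660) was 0.13 without osimertinib 3 and 0.52 without naphthalene 3. H2-Eb1 was at 104 ± 22.2 CPM against 86.6 ± 14.3 CPM (log2 0.26, SE 0.16, adjusted p = 0.624), and it was 0.15 without osimertinib 3. The invariant chain Cd74 was at 504, 583, 508, 467 and 539 CPM with osimertinib, against 485, 511 and 458 CPM with naphthalene. The groups overlapped, and the log2 difference was 0.10 (SE 0.10, adjusted p = 0.788).

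The H2-DM chains overlapped as well. H2-DMb1, the beta chain of the editor, was at 19.8, 25.4, 38.2, 22.1 and 22.7 CPM in osimertinib 1 to 5, against 18.0, 20.2 and 17.9 CPM in naphthalene 1 to 3. Osimertinib 1 lay within the naphthalene range and the other 4 above it, most of all osimertinib 3. The log2 difference was 0.40 (SE 0.17, limma adjusted p = 0.455), and 0.25 without osimertinib 3. H2-DMa, the alpha chain, was at 23.7 ± 5.40 CPM (SD, n = 5) against 21.2 ± 6.79 CPM (SD, n = 3), with a log2 difference of 0.17 (SE 0.19, adjusted p = 0.805), which was 0.05 without osimertinib 3, 0.0047 without naphthalene 1, 0.10 without naphthalene 2 and 0.41 without naphthalene 3. Ciita was at 31.9 ± 6.05 CPM against 27.8 ± 2.89 CPM (log2 0.18, SE 0.14, adjusted p = 0.711), with its highest value, 41.1, in osimertinib 3 and a log2 difference of 0.08 without that library.

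Over the 9 members, 7 had log2 differences above 0 and 2 below, with a median of 0.18, beside a median of 0.06 and 60.5% above 0 over all genes tested. None passed limma, edgeR or DESeq2 after adjustment. Over all genes limma and edgeR called 0 (0%), with 1671 and 1189 genes at an unadjusted p under 0.05, and DESeq2 called 21 (0.129%), 0.0616% lower and 0.0678% higher. With equal totals the 7 positive members passed limma, as did 14278 of all genes. At an unadjusted limma p under 0.05 there was 1 higher member (H2-DMb1) and 1 lower (H2-Ob), beside 7.08% higher and 3.22% lower over all genes, 10.3% in either direction. H2-Ob was the 1 member whose groups did not overlap, beside 2.12% of all genes with osimertinib below naphthalene, 3.82% above it and 5.94% in either direction.

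**Figure D2:**
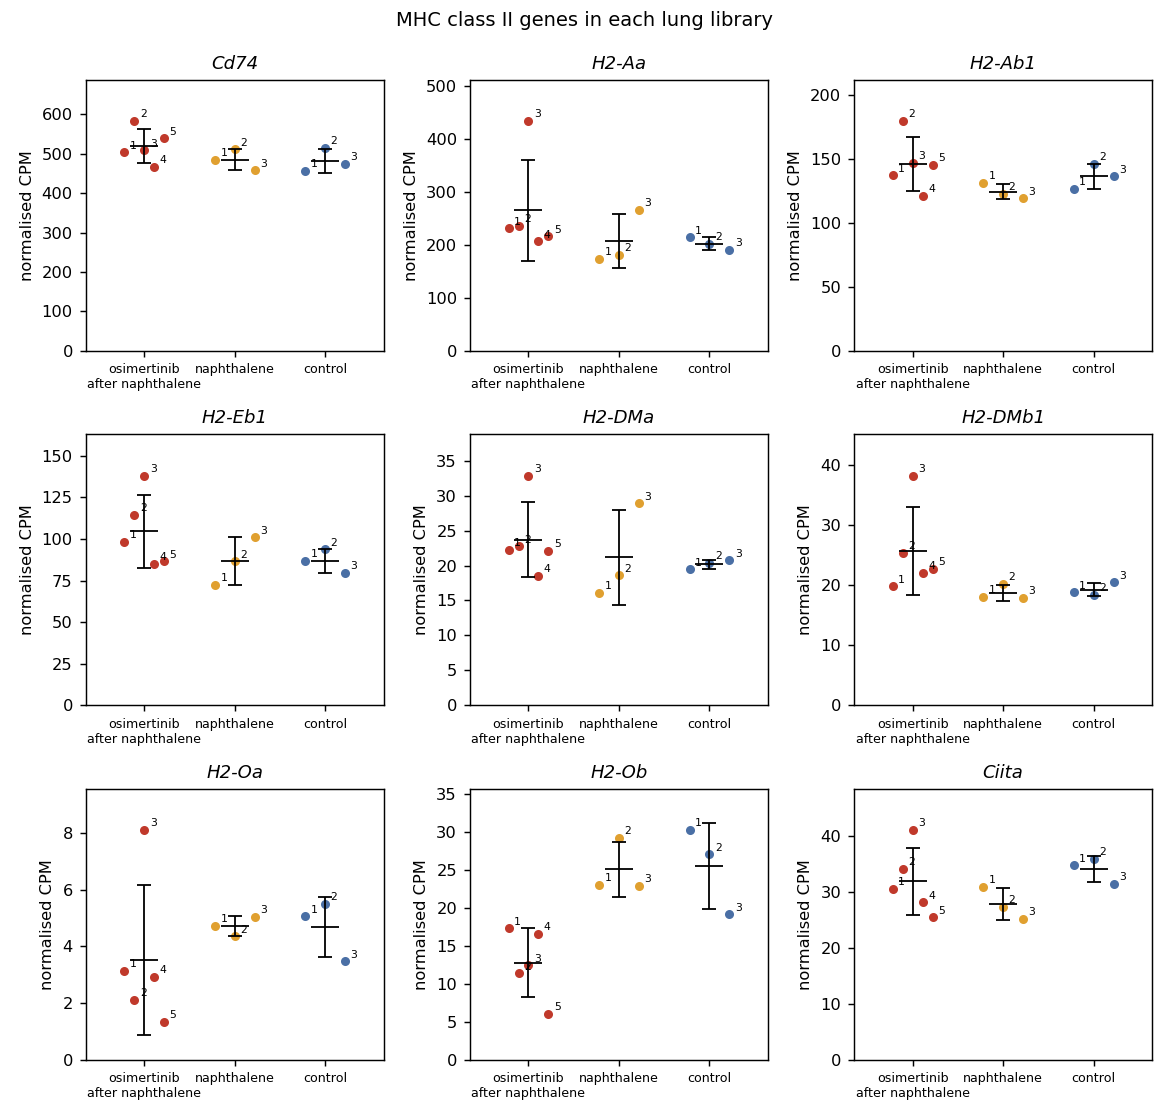
Deposited values (CPM) of the 9 members in each library by group; points are libraries with their replicate number, and bars show mean and SD. H2-Ob lies at 6.06 to 17.3 with osimertinib, below the lowest naphthalene (22.9) and control (19.2) libraries (against naphthalene the difference turns to log2 0.13 with equal totals), while H2-Aa, H2-Eb1, H2-Oa, H2-DMa, H2-DMb1 and Ciita have their highest osimertinib value in library 3.

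The comparison of naphthalene with control addresses the injury. In the deposited scaling 8 of 9 members had log2 differences within 0.13 of 0, and no member passed. With equal totals all 9 turned or stayed negative and passed limma (adjusted p of 3.39e-05 to 0.00196), as did 15512 of all genes, beside a median gene at −1.47. Ciita, which sets class II transcription, was at 30.9, 27.3 and 25.2 CPM in naphthalene 1 to 3, against 34.8, 35.9 and 31.5 CPM in control 1 to 3. All naphthalene libraries lay below all control libraries, with a log2 difference of −0.29 (SE 0.16, limma adjusted p = 0.744, and 3.39e-05 to 1 over the alternatives tried, where the lowest came from equal totals). Ciita was the 1 of 9 members whose groups did not overlap, beside 11.2% of all genes lower, 4.94% higher and 16.2% in either direction, so that share is near the background. The log2 differences of the other 8 members lay between −0.13 (H2-Ab1) and 0.03 (H2-DMa). H2-Ob averaged 25.1 ± 3.62 CPM with naphthalene and 25.5 ± 5.72 CPM in control (SD, n = 3 each), and Cd74 485 ± 27.0 and 482 ± 29.6 CPM. The median over the members was −0.01, beside −0.06 over all genes. No member passed limma or edgeR, and DESeq2, which gave no adjusted p for H2-DMa, H2-DMb1, H2-Oa and H2-Ob, called none of the other 5. At an unadjusted limma p under 0.05 there were 0 members, beside 1.73% of all genes higher, 5.74% lower and 7.46% in either direction. Over all genes limma and edgeR called 0 (0%) and DESeq2 11 (0.0678%), 0.0185% lower and 0.0493% higher, where DESeq2 gave no adjusted p for 11369 of the 16225 genes. All 3 naphthalene libraries and no control library carried the high read share, so naphthalene and that share cannot be told apart in this comparison.

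Osimertinib was set against control as the whole course of injury and drug, and 4 of the 5 osimertinib libraries are free of the high read share, as all control libraries are. The H2-O chains again had the largest differences among the members, in a comparison that shares its osimertinib libraries with the one above. H2-Ob was at 12.8 ± 4.55 CPM (SD, n = 5) against 30.3, 27.1 and 19.2 CPM in control 1 to 3, and no osimertinib library reached the lowest control library. The log2 difference was −0.997 (SE 0.27), it ranked 88 by limma p, and it did not pass (adjusted p = 0.607, and 0.0186 to 1 over the alternatives tried, where the lowest came from equal totals). In the 4 osimertinib libraries free of the high read share it was −0.98 against control. H2-Oa had a log2 difference of −0.47 (SE 0.35, adjusted p = 0.999), and −0.77 without osimertinib 3. Its control values were 5.06, 5.50 and 3.48 CPM.

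The remaining members overlapped between osimertinib and control. H2-DMb1 had the largest positive difference (log2 0.36, SE 0.17, limma adjusted p = 0.999), with means of 25.6 ± 7.31 CPM with osimertinib and 19.2 ± 1.09 CPM in control; without osimertinib 3 it was 0.21. H2-Aa lay at 0.33 and H2-Eb1 at 0.25, which were 0.14 and 0.14 without osimertinib 3. H2-DMa lay at 0.20 (0.08 without osimertinib 3), Cd74 at 0.11 and H2-Ab1 at 0.09, and with equal totals H2-Aa, H2-Eb1, H2-DMa, Cd74 and H2-Ab1 turned negative, beside a median gene at −0.35. Ciita lay at −0.11, and at −0.20 without osimertinib 3. The member median was 0.11, beside −0.01 over all genes. None of the 9 passed limma, edgeR or DESeq2, beside 1 gene (0.00616%) called by limma, 1 (0.00616%) by edgeR and 75 (0.462%) by DESeq2 over all genes. H2-Ob was again the 1 member whose groups did not overlap, beside 3.43% of all genes lower, 2.91% higher and 6.34% in either direction, and the 1 member at an unadjusted limma p under 0.05, beside 2.5% lower, 2.31% higher and 4.8% in either direction.

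**Figure D3:**
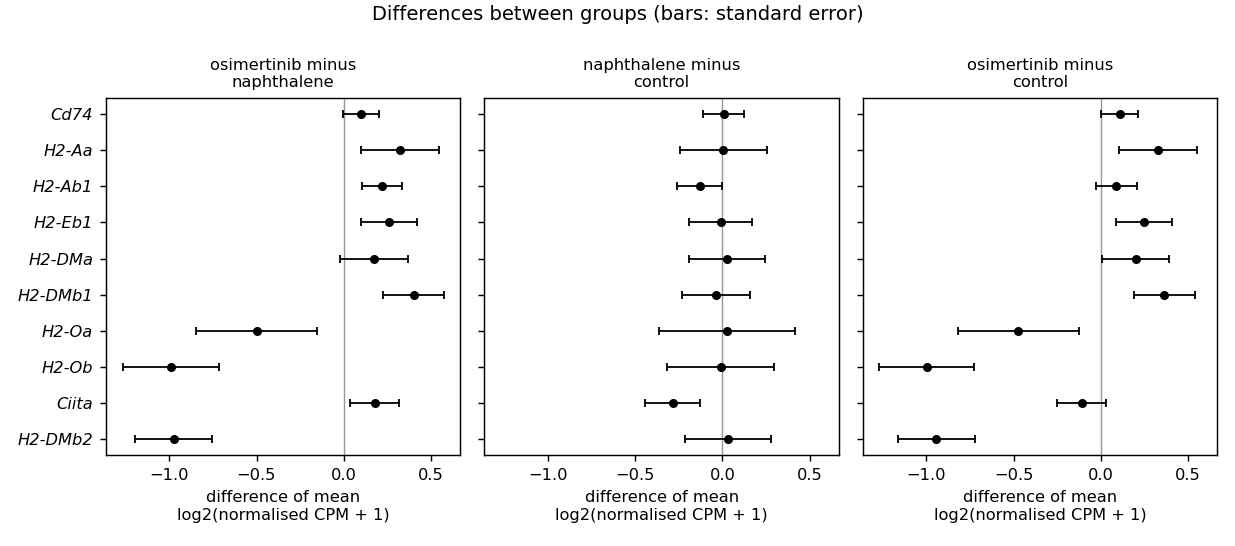
Differences of mean log2(CPM + 1) between groups for the 9 members and H2-DMb2, with bars showing the standard error. H2-Ob and H2-DMb2 lie near −1 in both comparisons with osimertinib (against naphthalene they turn to 0.13 and 0.12 with equal totals), and members other than Ciita lie between −0.13 and 0.03 for naphthalene minus control, where equal totals put every member below 0.

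Other genes of the pathway came from lists chosen with earlier results of these data known. Among 9 genes of peptide loading and class II turnover, H2-DMb2, the other H2-DM beta chain gene of the mouse, lay below naphthalene and control, as H2-Ob did and H2-DMb1 did not. It was at 9.62, 8.74, 6.50, 8.25 and 5.33 CPM in osimertinib 1 to 5, against 12.9, 20.6 and 14.7 CPM in naphthalene 1 to 3 and 17.4, 18.7 and 11.2 CPM in control 1 to 3. Every osimertinib library lay below every naphthalene and control library, beside 2.12% of all genes lower without overlap against naphthalene and 3.43% against control. The log2 difference was −0.97 (SE 0.22) against naphthalene, with an adjusted p of 0.188 by limma, 0.424 by edgeR and 0.0523 by DESeq2, and it turned to 0.12 with equal totals. Against control it was −0.94 (SE 0.22), with an adjusted p of 0.392 by limma, 0.272 by edgeR and 0.0224 by DESeq2, so that among these 3 tests it was called lower by DESeq2 only, which called 0.203% of all genes lower and 0.259% higher. Limma with equal totals called it lower too. H2-DMb1 and H2-DMb2 are close copies of each other, and how reads they share were assigned is not given in the sources used here. Their ratio, H2-DMb2 to H2-DMb1, chosen after its values were seen, was 0.322 ± 0.123 (SD, n = 5) with osimertinib, against 0.853 ± 0.153 with naphthalene and 0.830 ± 0.251 in control (SD, n = 3 each). The highest osimertinib ratio, 0.486, lay below the lowest naphthalene (0.719) and control (0.546) ratios.

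The endosomal protease Ctss, which trims the invariant chain, lay the other way. It was at 124, 131, 121, 101 and 102 CPM in osimertinib 1 to 5, against 79.6, 70.4 and 95.0 CPM in naphthalene 1 to 3 and 72.6, 76.5 and 78.2 CPM in control 1 to 3, with no overlap. Against control the log2 difference was 0.59 (SE 0.12), with an adjusted p of 0.00133 by DESeq2, 0.313 by limma and 0.178 by edgeR. Against naphthalene it was 0.50 (SE 0.12), with an adjusted p of 0.168 by DESeq2, 0.203 by limma and 0.431 by edgeR. The thiol reductase Ifi30, which opens disulphide bonds of antigens, was at 40.5 ± 8.03 CPM with osimertinib, 32.2 ± 3.56 with naphthalene and 28.0 ± 0.156 in control. Marchf1, a ubiquitin ligase that removes class II from the surface of B cells and dendritic cells, was at 14.6 ± 2.23 CPM, against 21.2 ± 1.13 with naphthalene and 18.6 ± 0.888 in control, and the osimertinib values lay below both. Its limma adjusted p was 0.215 against naphthalene and 0.905 against control. In the list as a whole, limma and edgeR called 0 of 9 in each comparison, with 3 higher and 2 lower at an unadjusted limma p under 0.05 against naphthalene (7.08% and 3.22% of all genes) and 3 and 3 against control (2.31% and 2.5%). Groups did not overlap for 1 higher and 2 lower against naphthalene, beside 3.82% and 2.12% of all genes. Against control there were 4 higher and 2 lower, beside 2.91% and 3.43%. DESeq2 called 0 against naphthalene, and against control H2-DMb2 (lower) and Ctss (higher). H2-Eb2, a relative of H2-Eb1, averaged 1.19 CPM with osimertinib, 1.26 with naphthalene and 2.40 in control, and H2-Ea was not analysed here.

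Among 19 regulators of class II, 18 were tested and limma and edgeR called 0 (2 were higher at an unadjusted limma p under 0.05 for osimertinib against naphthalene, beside 7.08% of all genes). Osimertinib against naphthalene had a median of −0.02 over them, beside 0.06 over all genes, with 8 above 0 and 10 below. Ifngr1, a chain of the interferon gamma receptor, was called higher by DESeq2 alone (adjusted p = 0.0492), beside 0.0678% of all genes called higher. It was at 102 ± 4.14 CPM with osimertinib, 75.8 ± 8.69 with naphthalene and 86.8 ± 2.50 in control. For osimertinib against control its DESeq2 adjusted p was 0.179. Rfx5, the DNA-binding RFX chain, was at 16.7 ± 2.44 CPM with osimertinib, 19.6 ± 3.03 with naphthalene and 18.7 ± 2.08 in control. Ifng itself was the regulator that was not tested, with a highest value of 0.791 CPM and 0 in 3 libraries.

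Marker levels of the cells that carry class II stood beside these values as follows. B cell markers, 12 genes such as Ms4a1 and Cd79a, had a summed level of 58.6 to 144 CPM in the osimertinib libraries, against 199 to 283 CPM with naphthalene and 187 to 294 CPM in control, and no marker was at 0 in any library. All 12 had log2 differences below 0 against naphthalene (median −0.99) and against control (median −1.10), beside medians of 0.06 and −0.01 over all genes, and limma and edgeR called 0 of 12 in both, while all 12 were lower at an unadjusted limma p under 0.05, beside 3.22% of all genes against naphthalene and 2.5% against control. DESeq2 called Ms4a1, Cd79a and Pax5 lower against naphthalene and 5 of 12 lower against control, beside 0.0616% and 0.203% of all genes lower. Ms4a1, a B cell surface protein, was at 13.0 ± 6.02 CPM with osimertinib, 35.8 ± 10.5 with naphthalene and 34.1 ± 7.36 in control. In bulk lung, fewer cells of a type and less RNA per cell cannot be told apart, and the part of the B cell markers in the H2-Ob, H2-Oa and H2-DMb2 values was not tested.

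Marker levels of other class II carriers were as follows. Of 11 dendritic cell markers tested 8 lay above 0 against naphthalene (median log2 0.43), beside 60.5% of all genes (median 0.06). Against control 7 lay above 0 and 4 below (median 0.04), beside 48.0% of all genes above 0 (median −0.01). The summed level of all 12 was 138 to 174 CPM with osimertinib, 118 to 138 with naphthalene and 128 to 143 in control; Batf3, the marker not tested, was at 0 in some libraries. Itgax, an integrin of dendritic cells and lung macrophages, was at 55.1 ± 8.42 CPM, against 36.4 ± 9.92 with naphthalene and 35.4 ± 1.10 in control (DESeq2 adjusted p = 0.0282 against control, limma 0.558), while Ccr7, the homing receptor of mature dendritic cells and of lymphocytes, was at 8.16 ± 1.34, 12.0 ± 2.60 and 12.1 ± 1.82 CPM. All 12 monocyte and interstitial macrophage markers lay above 0 against naphthalene (median 0.50), with sums of 465 to 626 CPM with osimertinib, 393 to 439 with naphthalene and 404 to 457 in control. The 10 alveolar macrophage markers summed to 538 to 1003 CPM, 408 to 603 and 400 to 439 CPM in the same order. The 10 alveolar type 2 markers summed to 17666 to 37008, 15875 to 24543 and 14773 to 16793 CPM. The largest parts came from Chil3 (mean 503 CPM with osimertinib) and Sftpc (9978 CPM). Of the alveolar macrophage markers 8 lay above 0 and 2 below, against naphthalene as against control. Marco was lower, at 4.22 CPM, against 6.20 with naphthalene and 5.11 in control. Of the type 2 markers 9 lay above 0 and 1 below against naphthalene, and all 10 lay above 0 against control. Against control DESeq2 called, beside Itgax, the markers Plet1 and Atp6v0d2 of alveolar macrophages, Ms4a7 of interstitial macrophages and Sftpd and Slc34a2 of alveolar type 2 cells, all higher. Over all genes DESeq2 called 0.259% higher in that comparison. Osimertinib 3 held the highest sum in these 4 lists, and no marker other than Batf3 was at 0. Limma and edgeR called 0 markers of these lists. At an unadjusted limma p under 0.05 against naphthalene, 6 dendritic cell markers were higher and 1 lower. There 8 monocyte and interstitial macrophage, 1 alveolar macrophage and 0 type 2 markers were higher, beside 7.08% of all genes higher and 3.22% lower. Against control 2 dendritic cell markers were higher and 1 lower, and 7, 4 and 5 of the other lists higher, beside 2.31% and 2.5%. Groups did not overlap, higher than control, for 10 type 2 markers, 4 of each macrophage list and 3 dendritic cell markers (1 lower), beside 2.91% higher and 3.43% lower. In naphthalene against control all 10 type 2 markers also lay above 0 (median log2 0.30). Groups did not overlap for 4 of them, beside 4.94% of all genes higher. There 7 of 10 alveolar macrophage, 5 of 12 monocyte and interstitial macrophage and 3 of 11 dendritic cell markers lay above 0. Over all genes 38.0% did. The part of these cells in the values of the classical chains was not tested.

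The genes most like H2-Ob over the 11 libraries, among 11687 others with a mean of at least 5 CPM, were Cd79a (Pearson r = 0.972, Spearman rho = 0.964), a B cell receptor signalling chain, and Ighd (0.971 and 0.945), the heavy chain constant region of IgD. Without osimertinib 3 and naphthalene 3 the Pearson values were 0.970 and 0.978. The genes most like H2-DMa were Ear2, Txndc15 and Isca2 (r = 0.968, 0.964 and 0.963, and 0.885, 0.902 and 0.888 without those libraries). The genes most like the mean of all 9 members were Rae1, Brk1, Fbxl4, Ciao2a, B230118H07Rik and Nono (r = 0.942 to 0.891, and 0.699 to 0.894 without those libraries). The libraries share groups and depth, and osimertinib 3 has the short-gene pattern, so these values describe likeness and were given no p.

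The members also split among themselves. H2-Aa and H2-DMa varied together over the 11 libraries (r = 0.917, and 0.822 without osimertinib 3 and naphthalene 3), as did Cd74 and H2-Ab1 (0.862 and 0.845). H2-Oa and H2-Ob had r = 0.634, and 0.971 without those libraries. H2-Ob had negative values with the classical chains and Cd74, from −0.583 with Cd74 to −0.328 with H2-Eb1, and 0.107 with Ciita.

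**Figure D4:**
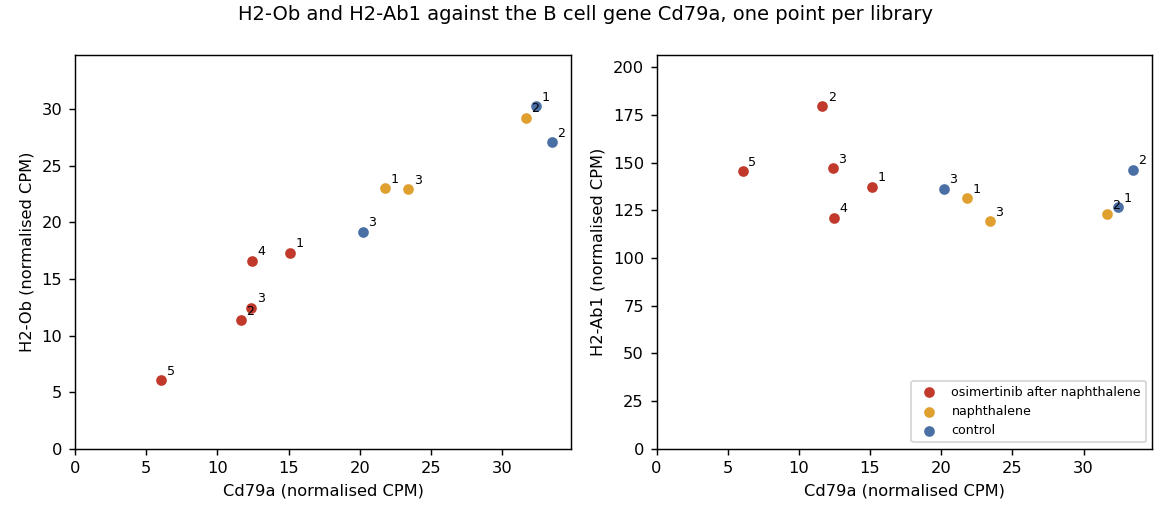
H2-Ob (left) and H2-Ab1 (right) against Cd79a, the gene most like H2-Ob, in deposited CPM with 1 point per library, labelled by replicate number. Libraries with high Cd79a have high H2-Ob, osimertinib 5 being lowest at 6.06 for both genes, while H2-Ab1 lies at 119 to 180 over the same range.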

How the data were processed

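The authors deposited 1 signal per gene and library: CPM on an effective library size. Per the submitters' processing notes the tools were Bowtie2, RSEM 1.3.0, Trimmomatic 0.38 and edgeR, with genome GRCm39; their roles are not given in the sources used here. The kit was directional, per the labels' protocols. Dividing by each library's smallest value gave whole reads for 100% of values (within 0.01), 5045361 to 13009975 per library. GENCODE M21 supplied names for 23123 of 23255 IDs, and exon lengths. The main test was limma 3.58.1 with a variance trend in R 4.3.3, on log2(value + 1) of the 16225 genes kept, all 3 groups in 1 fit, with Benjamini-Hochberg adjustment over all genes and a threshold of 0.05. Alternatives were edgeR 4.0.16 and, on the same recovered counts, DESeq2 1.42.0, other pseudocounts, filters and scalings, the replicate block, and libraries left out. Equal totals means scaling by all reads, the unnamed gene included. The fits were tested on simulated data. No libraries of a group were duplicates (chi-square per degree of freedom at least 3.44).

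Deviations of osimertinib and naphthalene libraries with the same number correlated at 0.122, 0.159 and 0.523. Naphthalene 1 and 2 correlated best with osimertinib 4, and naphthalene 2 and control 2 correlated at 0.2025. These values do not establish a pairing. The number entered only the replicate block, an alternative fit, and the main test used no pairing. What a number shares is not in the labels used here. The members and lists were chosen with earlier results of these data known. Beyond the members, genes were named as anchors or for the smallest p of their list, and any others were chosen after their values were seen. Some genes that this rule picks are not reported here.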

Additional observations from a re-analysis of the deposited data

Results flagged for a closer look

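H2-Aa in osimertinib 3 was at 433 CPM, far from the next highest osimertinib library at 236, with a gap of 0.871 of the group's range above the 95% limit of Dixon's test for 5 libraries. H2-Oa in osimertinib 3 was at 8.11 CPM, with the next at 3.13 and a gap of 0.735 of the range. Chance gives such a gap in about 1 in 20 groups, and 10 genes were looked at. H2-Oa has 1.41 kb of exon and H2-Aa 3.80 kb. In osimertinib 3 genes of 2000 to 5000 bases lay at a median log2 of 0.10 above the mean of the other osimertinib libraries. Genes under 2000 bases lay at 0.56. The part of the short-gene pattern of osimertinib 3 in these values was not tested.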

How the results depend on the processing

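The numbers of genes called depended on the setting. For osimertinib against naphthalene (0 calls) there were 41 with equal totals without genes over 5%, 14278 with equal totals, 1 with only the groups compared, 0 to 11 with 1 library left out, 47 without osimertinib 2 and 3, 2 with osimertinib 2 alone and 21 by DESeq2. For naphthalene against control (0 calls) there were 15512 with equal totals, 21 with only the groups compared, 0 to 12 with 1 library left out, 38 without osimertinib 2 and 3 and 11 by DESeq2. For osimertinib against control (1 call) there were 0 with equal totals without genes over 5%, 88 with equal totals, 0 to 2 with 1 library left out, 2 in libraries without a gene over 40%, 2 without osimertinib 2 and 3 and 75 by DESeq2. With the replicate block there were 0 calls in each comparison, Ciita turned to 0.041 for osimertinib against control, and no member's call changed. The median member lay at 1.32, −1.55 and −0.27 with equal totals in these comparisons (osimertinib against naphthalene, naphthalene against control, osimertinib against control), and at −0.28 for naphthalene against control without genes over 5%. With equal totals osimertinib against naphthalene turned positive for H2-Oa (0.42), H2-Ob (0.13) and H2-DMb2 (0.12), and osimertinib against control turned negative for Cd74 (−0.27), H2-Aa (−0.044), H2-Ab1 (−0.28), H2-Eb1 (−0.12) and H2-DMa (−0.16). H2-Ab1 was also −0.012 there without genes over 5% and −0.021 without osimertinib 2 and 3. Differences near 0 for naphthalene against control changed sign readily. Cd74, H2-Aa, H2-DMa and H2-Oa lay at −1.55, −1.55, −1.46 and −1.25 with equal totals and at −0.27, −0.27, −0.24 and −0.20 without genes over 5%. H2-Eb1, H2-DMb1 and H2-Ob lay at 0.047, 0.015 and 0.046 with median-ratio scaling, 0.051, 0.015 and 0.030 by edgeR and 0.055, 0.022 and 0.039 by DESeq2. With 1 library left out the ranges were −0.031 to 0.057 for Cd74, −0.19 to 0.12 for H2-Aa, −0.21 to 0.19 for H2-DMa, −0.13 to 0.11 for H2-Eb1, −0.092 to 0.0043 for H2-DMb1, −0.14 to 0.13 for H2-Oa and −0.19 to 0.12 for H2-Ob. With equal totals the unnamed gene is part of each total, and other causes were not tested. Equal totals were the one setting in which members passed: 7 of 9 for osimertinib against naphthalene, all 9 for naphthalene against control and H2-Ob for osimertinib against control. Low reads limit H2-Oa most, with 8 in its lowest library, osimertinib 2.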

Other observations

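Genes of class I presentation, which shows peptides to CD8+ T cells, were measured beside class II. All 16 lay above 0 in osimertinib against naphthalene (median log2 0.30, beside 0.06 over all genes), and 15 of 16 lay below 0 in naphthalene against control (median −0.32, beside −0.06). These comparisons share the naphthalene libraries, all of which carried the high read share of the unnamed gene, and the part of that share was not tested. Nlrc5, the class I counterpart of Ciita, was at 26.0, 34.1, 48.1, 29.7 and 26.3 CPM in osimertinib 1 to 5, against 18.9, 19.8 and 18.8 CPM with naphthalene and 30.9, 32.0 and 29.3 CPM in control. The naphthalene libraries lay below all others, with a limma adjusted p of 0.204 for osimertinib against naphthalene and 0.484 for naphthalene against control. Over all genes, 3.82% had osimertinib above naphthalene and 11.2% had naphthalene below control without overlap. Tap1, which carries peptides into the endoplasmic reticulum, was at 39.7 ± 4.50 CPM with osimertinib, 30.7 ± 1.82 with naphthalene and 41.3 ± 2.88 in control. Limma, edgeR and DESeq2 called 0 of 16 in each comparison, though DESeq2 gave no adjusted p for Psmb9, Psmb10 and Tapbpl in naphthalene against control. At an unadjusted limma p under 0.05 there were 4 higher in osimertinib against naphthalene, beside 7.08% of all genes, and 4 lower in naphthalene against control, beside 5.74%. With equal totals the median gene lay at 1.12 and −1.47 in these comparisons.

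Genes of co-stimulation were low. Of 5 tested, 3 lay above 0 in osimertinib against naphthalene (median log2 0.05), beside 60.5% and a median of 0.06 over all genes. Cd86, which signals to CD28 on T cells, was at 5.79 ± 1.81 CPM against 3.79 ± 1.17 CPM (limma adjusted p = 0.529). Cd274, a ligand of the inhibitory receptor PD-1, was at 15.3 ± 3.70 CPM against 11.4 ± 0.971 CPM (limma adjusted p = 0.508). Of 10 T cell markers, 8 lay below 0 in osimertinib against naphthalene (median −0.40) and all 10 in osimertinib against control (median −0.44), beside medians of 0.06 and −0.01 over all genes. Limma, edgeR and DESeq2 called 0 in both, and 4 were lower at an unadjusted limma p under 0.05 in each, beside 3.22% and 2.5% of all genes. Cd3d and Cd4 lay above 0 against naphthalene (log2 0.09 and 0.04). Cd3e, a chain of the T cell receptor complex, was at 3.52 ± 1.04 CPM with osimertinib, 5.73 ± 0.218 with naphthalene and 5.59 ± 0.490 in control, and Cd8a at 2.20 ± 0.555, 3.82 ± 0.943 and 4.56 ± 0.833 CPM.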
